A study of Mus musculus with 220 samples.

Results

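Inflamed high endothelial cells (HEC) were the cells titled IHEC in the FPKM table, 65 of its 220 columns. Columns 43 and 60 had an r of 0.99 with each other (the next highest value between inflamed cells was 0.68) and were averaged as 1 cell. That left 64 inflamed HEC among 219 cells. They came from lymph nodes of C57BL/6 mice harvested on day 3 after the skin was painted with 4% oxazolone, a hapten that provokes contact hypersensitivity. The comparison cells were 79 homeostatic HEC and 32 homeostatic blood endothelial cells (BEC) of untreated C57BL/6 mice, and 44 dedifferentiated HEC harvested on day 7 after a single intraperitoneal dose of LTBR-Ig, a decoy receptor for lymphotoxin. Each cell was its own library, made by single-cell RNA sequencing on the Fluidigm C1 system. The labels tie no cell to a mouse, a chip or a sort. Each cell group therefore counted as 1 sample, with no replicate check and no p-value.

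High endothelial cells line specialised postcapillary venules of lymph nodes. They coat sialomucins such as Glycam1 with fucose and sulfate, which makes ligands for L-selectin on lymphocytes, and they present chemokines such as Ccl21 that arrest rolling cells. Lymphotoxin from dendritic cells keeps this programme on, and inflammation adds the P- and E-selectins that capture myeloid and effector cells. Genes whose transcripts rise and dip together from cell to cell within such a population are said to covary.

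Covariation was measured as Pearson's r of log2(FPKM + 1) over the 64 cells, where FPKM is the number of fragments divided by transcript length and library size. It was computed among the 3140 genes whose FPKM was at least 1 in at least 50% of the cells. At the edge of that rule, 115 genes reached the level in exactly 32 cells and were kept, and 132 genes reached it in 31 cells and were left out, with the same median of mean log2 values (2.12). Both genes of a pair are read from the same library in each cell, with its depth and amplification, so each r is a description. Spearman's rho, r after the number of detected genes was removed by linear regression, and r in the other cell groups stand beside it. Differences in r between cell groups were not tested.

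Between 2585 and 5792 genes (median 3961) were detected per inflamed cell, meaning an FPKM of at least 1. Depth, estimated from the step size of low FPKM values, ran from 0.756 to 3.78 units of 1000000 fragments (median 2.27). Of the 64 cells, 6 carried 3 or more markers of another cell type at an FPKM of 10 or more, against 20 of 79 homeostatic HEC. All 6 did so for the pan-leukocyte list and 3 of them for the B-lymphocyte list as well, against 20 and 7 homeostatic HEC, and no cell of either group did so for the T-lymphocyte list. Arhgdib and Lcp1, 2 of the 11 pan-leukocyte markers, were themselves at an FPKM of 1 or more in 45 and 50 inflamed cells, while Ptprc, the pan-leukocyte phosphatase CD45, was in 3. The summed FPKM of that list ran from 0.69 to 2112 (median 159) in inflamed and had a median of 267 in homeostatic cells. Of the 12 pan-endothelial genes listed, 10 were detected in at least 50% of the cells, all but Cldn5 and Erg. Pecam1, Cdh5 and Egfl7 were at an FPKM above 1 in all 64 cells. Such genes bear on the endothelial part of the label and do not set HEC apart: Pecam1 was also high in BEC (mean log2 8.62, against 9.21). The lymphatic regulator Prox1 was at 0 in every cell. Cldn5, a tight-junction gene on the pan-endothelial list, was detected in 3 cells (4.69%, exact 95% interval 0.977% to 13.1%, counting error only).

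All 8 genes that mark these cells were detected in most of them, at very different and very uneven levels. Ubd, a ubiquitin-like modifier induced by inflammatory cytokines, ran from an FPKM of 309 to 24186 (median 6455). Lrg1, a secreted glycoprotein of inflamed vessels, ran from 493 to 11397 (median 2881). Ackr1, the atypical chemokine receptor of venules, ran from 3.76 to 9499 (median 1358). S100a11, a calcium-binding protein, was the most even of the 8, with an SD of 0.91 on the log2 scale and values of 129, 659 and 3140 at the lowest, median and highest cell. Ehd3, a membrane-trafficking ATPase, was between 4.04 and 1675 (median 502). Selp, the P-selectin that captures leukocytes, was between 2.10 and 1943 (median 201). The sulfotransferase Chst4 reached an FPKM of 1 in 62 cells (96.9%, exact 95% interval 89.2% to 99.6%) and the adhesion molecule Mcam in 58 (90.6%, 80.7% to 96.5%). Their medians were 315 and 81.8.

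The markers separated into those far above homeostatic HEC and those near them. Of 3397 genes compared, 432 (12.7%) had a mean log2 value higher by 1 or more in inflamed HEC and 212 (6.24%) lower by 1 or more, around a median difference of 0.20. S100a11 (4.01), Selp (3.86), Mcam (3.58), Ehd3 (2.70) and Lrg1 (1.43) were past that difference. In dedifferentiated HEC, Lrg1 averaged 11.47, against 11.41 in inflamed HEC. There S100a11, Selp, Mcam and Ehd3 averaged 6.01, 3.72, 2.47 and 5.45, against 9.46, 6.98, 5.58 and 8.51 in inflamed HEC. The differences from homeostatic HEC continue as follows. Ackr1 (0.62), Ubd (0.42) and Chst4 (0.32) were not past a difference of 1. These markers were given with the label, so the differences describe them and support nothing.

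Glycam1 and Ccl21a, the leading transcripts of resting HEC, remained abundant, with a very wide range in both states. Glycam1 ran from an FPKM of 207 to 115345 (median 6350) and Ccl21a from 87.5 to 141409 (median 21032), each with an SD above 2.5 on the log2 scale (2.54 and 2.88). The SDs were much the same in homeostatic HEC, at 2.40 and 2.89. Together they took 0.0853% to 28.3% of a cell's summed FPKM (median 4.06%), against a median of 20.8% in homeostatic HEC. Their mean log2 values differed from those of homeostatic HEC by -2.62 and -1.53. In BEC the same genes averaged 6.22 and 5.83, below the inflamed means of 12.50 and 13.17, so some signal was present in cells that should lack it.

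The other genes among the highest mean levels were mostly more even. Ubd, with a mean of 12.36 and an SD of 1.46, was among them. The antigen-presentation gene B2m (mean 13.24, SD 0.57), the interferon-induced Ifitm3 (13.01, SD 0.69), and the cytoskeletal genes Actb (12.92, SD 0.43) and Tmsb4x (12.29, SD 0.60) were in all 64 cells. The largest spreads were in genes that were abundant in some cells and near 0 in others. They included Sncg (SD 3.90), Serpina1b and Serpina1e (3.84 and 3.82, near-identical copies whose reads may be split), the interferon-induced Ifi27l2a (3.83), Fabp4 (3.74), Ifit3 (3.73) and Fos (3.69). Cd74, the class II invariant chain, had an SD of 3.76 and a median FPKM of 5.43.

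Most gene pairs had an r near 0. Over 4928230 gene pairs the median r was 0.03, with 1% of pairs at -0.28 or below and 1% at 0.33 or above. An r of 0.5 or more was reached by 2080 pairs (0.0422%), an r of -0.5 or less by 142 (0.00288%) and an r of 0.3 or more by 95047 (1.93%). After the number of detected genes had been removed, 1732 pairs (0.0351%) reached 0.5 and 248 (0.00503%) were at -0.5 or below. The same pairs in homeostatic HEC had a median r of 0.04 and reached 0.5 in 0.0327%.

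The pairs at 0.5 or more came from 855 genes. A block of 73 genes led by Smco1 and Cybrd1, described at the end, took part in 1457 of them (70%), with both members inside the block in 1114 (53.6%). Pairs with a ribosomal protein gene and no gene of that block made up 147 (7.07%). The remaining 476 pairs (22.9%) touched neither, and pairs of the endothelial genes described below were among them. In homeostatic HEC, cells not used to choose them, the 1114 pairs of the block had a median r of 0.47 and the 476 others a median of 0.10, with 13.7% of the 476 at 0.3 or more against 1.43% of all pairs. Neighbouring genes added little: 16 of 1900 pairs with positions lay within 1 Mb of each other (0.842%, against 0.175% of all pairs).

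The clearest endothelial programme was a group of 7 genes found by average-linkage clustering of all 3140. They were Glycam1, Ccl21a, the heparan sulfate endosulfatase Sulf1, the secreted chaperone clusterin (Clu), Ubd, the tetraspanin Cd63 and Chst4. Their mean r was 0.52, with single pairs from 0.21 to 0.75. Since the clustering used these values, the r inside the group describes it. In cells that the clustering did not use, the mean r of the same genes was 0.36 in homeostatic HEC, 0.38 in dedifferentiated HEC and -0.01 in BEC. The 7 genes lie on 7 different chromosomes (15, 4, 1, 14, 17, 10 and 8, in the order above).

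Promoter windows of the leading members are shown because these genes moved together across cells. Each window holds 300 bases around the RefSeq transcript start in GRCm38.p6, most of them before it, 5′ to 3′ on the gene's strand, in lower case. Capitals mark matches, on either strand, to letters of 4 motifs: GAAA and GAAA with 2 bases between them (interferon-stimulated response element, ISRE), TTCNNNGAA (gamma-activated or STAT site), TGANTCA (AP-1 site) and GGGA and TTCC with 2 bases between them (NF-kB site). The windows are chr15:103565032-103565331 on the minus strand for Glycam1, chr4:42773942-42774241 on the minus strand for Ccl21a and chr17:37193642-37193941 on the plus strand for Ubd.
Glycam1: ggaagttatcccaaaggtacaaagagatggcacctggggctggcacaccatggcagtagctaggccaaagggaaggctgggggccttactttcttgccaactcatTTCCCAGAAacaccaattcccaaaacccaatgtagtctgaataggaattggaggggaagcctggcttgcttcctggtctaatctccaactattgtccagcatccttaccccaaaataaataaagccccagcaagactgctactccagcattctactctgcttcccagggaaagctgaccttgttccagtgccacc
Ccl21a: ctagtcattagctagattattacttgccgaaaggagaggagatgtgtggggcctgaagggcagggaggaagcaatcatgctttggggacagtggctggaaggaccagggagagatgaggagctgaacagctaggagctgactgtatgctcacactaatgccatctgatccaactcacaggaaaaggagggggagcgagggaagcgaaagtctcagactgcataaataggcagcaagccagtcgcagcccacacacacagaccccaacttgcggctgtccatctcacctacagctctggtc
Ubd: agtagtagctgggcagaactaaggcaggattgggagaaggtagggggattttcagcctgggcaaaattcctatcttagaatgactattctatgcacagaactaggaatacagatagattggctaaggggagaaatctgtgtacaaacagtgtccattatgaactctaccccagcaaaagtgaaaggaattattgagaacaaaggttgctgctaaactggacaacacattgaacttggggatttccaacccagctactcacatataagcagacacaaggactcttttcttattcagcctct
The Glycam1 window held 1 TTCNNNGAA match, and the windows of Ccl21a and Ubd held no match to these letters. Of the 5 group members with a window in the RefSeq table, Glycam1 held TTCNNNGAA, Chst4 held TGANTCA and none held the ISRE or NF-kB letters as spelled here. Each spelling is 1 narrow form of its motif, other forms were not searched, and the absence of a match says nothing of the factor. Over all 32851 windows of the same length, 8.30% hold TTCNNNGAA, 7.81% hold TGANTCA, 3.44% the ISRE letters and 1.47% the NF-kB letters. At these shares, none in 5 windows does not set the group apart from other genes.

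Glycam1 and Ccl21a had the highest r within the group, 0.75 (rho 0.78). The value was 0.79 after gene number was removed and stayed between 0.74 and 0.78 with any single cell left out. In the scatter of both genes by cell, cells high in Glycam1 were high in Ccl21a, while cells low in Glycam1 spread from low to high Ccl21a. In homeostatic HEC, with higher means of 15.13 for Glycam1 and 14.70 for Ccl21a, r was 0.18. It was 0.61 in dedifferentiated HEC and -0.13 in BEC.

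**Figure D1:**
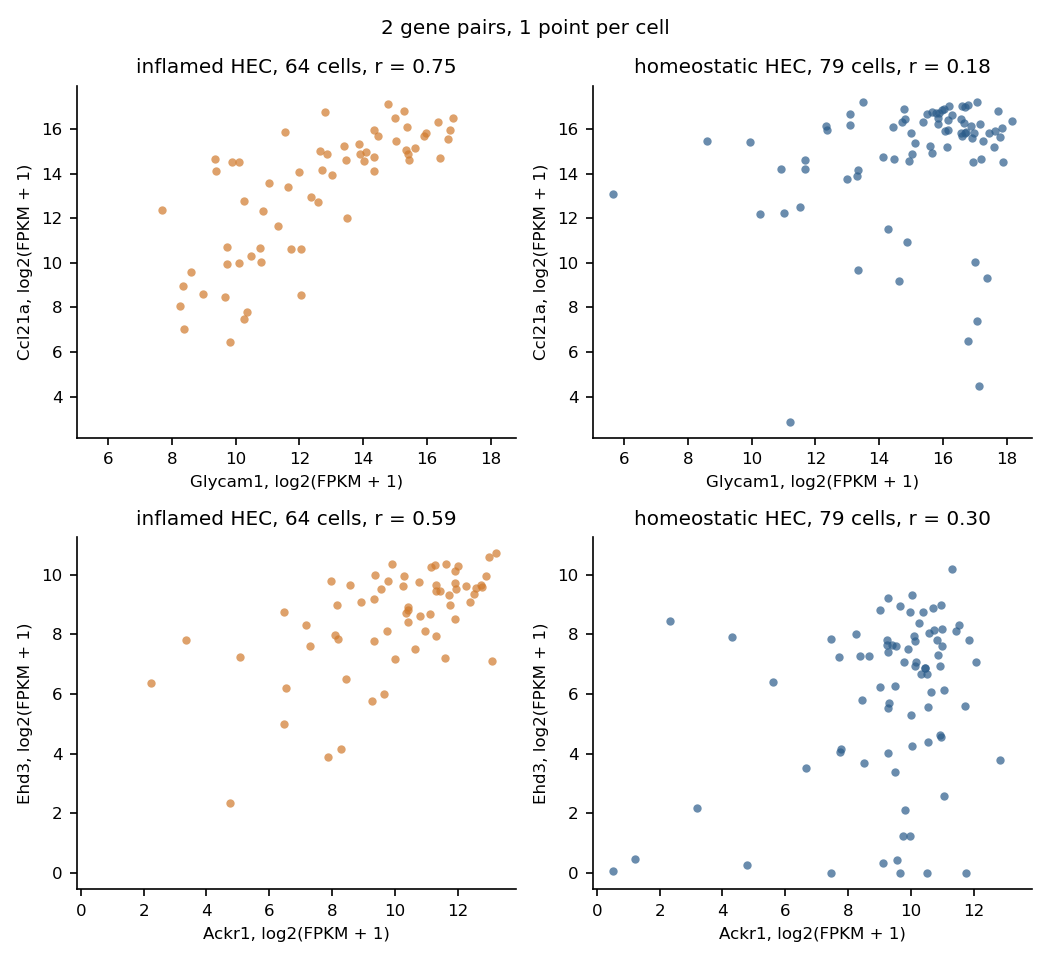
Levels of Ccl21a against Glycam1 (top) and of Ehd3 against Ackr1 (bottom), as log2(FPKM + 1), in 64 inflamed HEC (left, orange) and 79 homeostatic HEC (right, blue); each point is 1 cell. The inflamed cells form a rising band for Glycam1 and Ccl21a (r = 0.75), while most homeostatic cells sit at the upper right with a few low in either gene (r = 0.18); for Ackr1 and Ehd3 r was 0.59 and 0.30.

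Glycam1 was the centre of the group, with a mean r of 0.64 to the other members. Its r was 0.70 with Sulf1 (rho 0.69), 0.66 with Cd63 (rho 0.65), 0.62 with Ubd (rho 0.62) and 0.58 with Clu (rho 0.67). Sulf1 was detected in 42 of 64 cells (65.6%, exact 95% interval 52.7% to 77.1%), and in the cells with both genes at an FPKM of 1 or more its r with Glycam1 was 0.60. Ubd and Sulf1 (r = 0.66, rho 0.68) and Cd63 and Clu (r = 0.58, rho 0.64) were joined without Glycam1. In homeostatic HEC, Glycam1 had an r of 0.70 with Ubd, 0.65 with Clu, 0.48 with Cd63 and 0.33 with Sulf1. The mean r of the group was 0.54 after depth was removed, 0.50 without the 6 cells carrying leukocyte markers and 0.55 after FPKM were rescaled without Glycam1 and Ccl21a.

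The enzymes that build the L-selectin ligand were tied to Glycam1 more loosely. Gcnt1, which adds the core branch, had an r of 0.50 with Glycam1, Chst4, which adds the sulfate, 0.45, and Fut7, which adds the fucose, 0.42. Among themselves r was 0.39 for Fut7 and Chst4 and 0.33 for Fut7 and Gcnt1. These values were smaller among cells at an FPKM of 1 or more for both genes, at 0.22 for Gcnt1 with Glycam1 (49 cells), 0.20 for Fut7 with Glycam1 (56 cells) and 0.35 for Chst4 with Glycam1 (62 cells). Gcnt1 and Chst4 had an r of 0.39 over all cells and -0.13 in the 48 with both. Fut7 and Ccl21a had an r of 0.50 (rho 0.55), and of 0.30 in the 56 cells with both. Gcnt1 and Trim8 had an r of 0.50 over all cells and -0.01 in the 33 cells with both.

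The wider list of ligand carriers and glycosylation enzymes, with 13 of 17 genes in at least 50% of the cells, had a median r of 0.04 and 8 of 78 pairs (10.3%) at 0.3 or more, against 1.93% of all pairs and 7.69% of the list's pairs in homeostatic HEC. The sialomucin Podxl ran against Glycam1 at r = -0.35. In the HEC marker list, 22 of 36 pairs (61.1%) were at 0.3 or more, with a median r of 0.36, against 0.21 in homeostatic HEC. That list holds Glycam1, Ccl21a, Chst4 and Ubd of the group above and is no separate support. Madcam1, the mucosal addressin, was detected in 18 of 64 cells (28.1%, exact 95% interval 17.6% to 40.8%), and its closest partner was Armcx4 (r = 0.47, but 0.21 in the 16 cells with both).

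**Figure D2:**
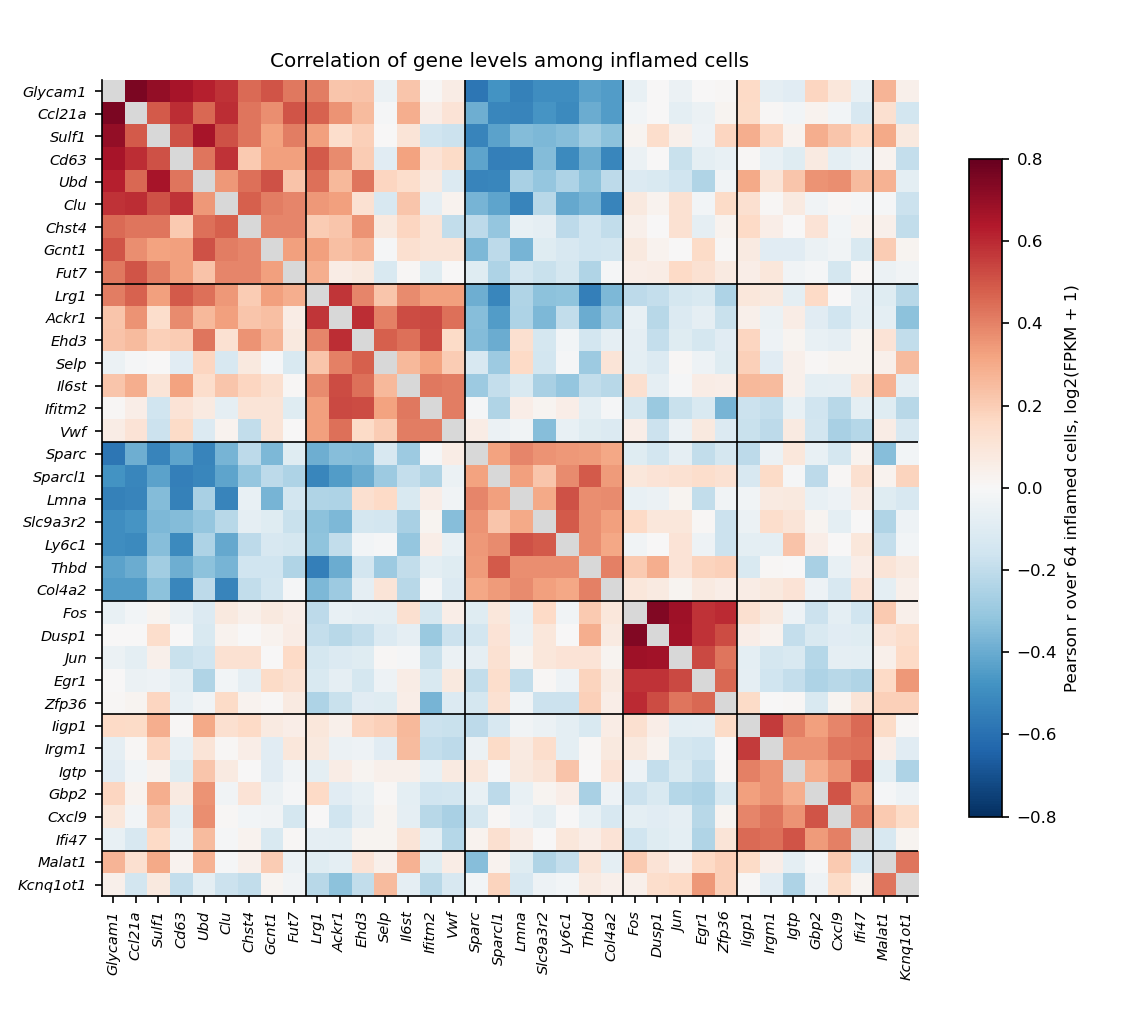
Pearson r of log2(FPKM + 1) over 64 inflamed HEC among 36 genes, in 6 sets from top to bottom: the HEC group with ligand enzymes, venular markers, genes inverse to Glycam1, immediate early genes, interferon-gamma genes, and 2 long noncoding RNAs. Red squares lie along the diagonal within each set, the blue block joins the first and the third set, and the immediate early and interferon-gamma sets are pale against the others.

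A second set, called venular here, was picked by hand around Ackr1. The clustering placed none of its 7 genes in a group, and the r inside the set describes the choice. Ackr1 had its highest r with Ehd3 (0.59, rho 0.55), Lrg1 (0.57, rho 0.59), Ifitm2 (0.53, rho 0.34) and the interleukin-6 family receptor chain Il6st (0.52, rho 0.54). Selp was joined to Ehd3 (r = 0.48, rho 0.43) and to Ackr1 (r = 0.40, rho 0.35), and Vwf, the von Willebrand factor stored with P-selectin in Weibel-Palade bodies, to Ackr1 (r = 0.44, rho 0.40). Over 7 genes (Lrg1, Ackr1, Ehd3, Selp, Il6st, Ifitm2 and Vwf), chosen after their values were seen, all 21 pairs were above 0 and 17 were at 0.3 or more, with a mean r of 0.40. The mean was 0.15 in homeostatic HEC with 3 of 21 pairs at 0.3 or more, 0.11 in dedifferentiated HEC and 0.16 in BEC. Ifitm2 rested in part on few cells: with the 2 cells farthest in Ackr1 or in Ehd3 left out, its r with them was 0.43 and 0.38. Ifitm2 was also high in BEC (mean log2 10.36, against 11.54 in inflamed HEC).

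The venular genes and the Glycam1 group had a lower mean r with each other than within each set. Over the 63 pairs between 9 HEC genes (the group of 7 with Gcnt1 and Fut7) and the 7 venular genes the mean r was 0.15 and 13 pairs reached 0.3. These values were above those of all pairs, of which 1.93% reached 0.3 around a median r of 0.03. Within the 9 HEC genes the mean r was 0.47, and within the venular genes 0.40. Lrg1 stood between them, with an r of 0.49 with Cd63, 0.44 with Ubd and 0.41 with Glycam1. Ehd3 and Ubd had an r of 0.43. Selp had an r of -0.05 with Glycam1 (rho -0.09). Selp had its highest r with the insulin receptor gene Insr (0.52, rho 0.49), followed by Ehd3, Glipr2 (0.45), the leukaemia inhibitory factor receptor Lifr (0.42) and the cytokine receptor chain Csf2rb2 (0.40).

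The 8 markers shared some of their closest partners, such as Ehd3 for Selp and Ackr1. The number of genes at r of 0.3 or more with a marker ran from 33 of 3139 for Ackr1 (1.05%) to 82 for Ubd (2.61%), near the 1.93% of all pairs. Ubd was next linked to Ly96 (r = 0.52), the lipopolysaccharide-binding partner of Toll-like receptor 4, and to complement factor B (Cfb, r = 0.50). Lrg1 was joined to Apoe, the lipid carrier (r = 0.57, rho 0.59), and to the ferritin heavy chain Fth1 (0.52, rho 0.61). Chst4 had Clu as its closest partner (0.48, rho 0.45).

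S100a11 and Mcam, both far above their homeostatic levels, had no close partner in the Glycam1 group or the venular set. S100a11 reached 0.5 with no gene: its closest partners were Hif1a, the hypoxia-inducible factor (r = 0.44), the deubiquitinase Cyld (0.42) and Mndal (0.41). Mcam had its highest r with Rell1 (0.50, rho 0.54), and Rell1 was itself among the 8 genes most tied to gene number (r = 0.51). Between the 2 markers r was -0.04, and S100a11 and Selp had an r of -0.08. Over all 28 pairs of the 8 markers, 9 were at 0.3 or more and the median r was 0.20, against 0.16 in homeostatic HEC and 0.04 in dedifferentiated HEC.

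A set of genes with mixed roles ran against the Glycam1 group. Sparc, a collagen-binding matrix protein, was in all 64 cells (FPKM 193 to 3048, median 1028) and had an r of -0.58 with Glycam1 (rho -0.61) and -0.53 with Ubd. Lmna, a nuclear lamin, had an r of -0.54 with Glycam1, and Ly6c1, a surface antigen of capillary endothelium, -0.50. Ly6c1 ranged from 3.00 to 14155 (median 731). Sparcl1 had an r of -0.55 with Cd63, and the collagen gene Col4a2 of -0.53 with Clu.

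These inverse genes covaried among themselves. Sparc, Sparcl1, Lmna, Slc9a3r2, Ly6c1, Thbd and Col4a2 were chosen from the end of the third principal component opposite to Glycam1, after it was seen. Of their 21 pairs, 20 were at 0.3 or more (mean r 0.37), against 1.93% of all pairs. None of the 63 pairs between them and the 9 HEC genes was above 0, and 40 were at -0.3 or below (mean -0.34). Of all pairs, 1% were at -0.28 or below. The choice favours such values in inflamed HEC, so they describe it. In homeostatic HEC the same 63 pairs had a mean of -0.21 with 19 at -0.3 or below, and the 21 had a mean of 0.32. Dedifferentiated HEC had -0.23 and BEC 0.01 over the 63. The venular genes ran against some of the same genes: of 49 pairs between those sets 14 were at -0.3 or below. The mean of the 49 was -0.18, against 0.02 in homeostatic HEC. The lowest was Lrg1 with thrombomodulin (Thbd) at -0.55. Lrg1 was itself among the leading genes at the Glycam1 end of the third component, so the choice favours low values with it too. Glycam1 and Sparc had an r of -0.74 without the 7 cells with fewest genes. For Glycam1 and Lmna r was -0.33 in the 40 cells with both genes detected.

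Some of the inverse genes were far higher in BEC. Ly6c1, Sparcl1, Slc9a3r2 and Thbd had mean log2 values of 12.39, 9.28, 7.00 and 6.99 in BEC, against 8.35, 2.72, 2.70 and 3.39 in inflamed HEC. Sparc, Col4a2 and Lmna averaged 10.34, 5.69 and 3.65 in BEC and 9.99, 5.56 and 3.84 in inflamed HEC. Whether BEC RNA or cells take part in the inverse values was not tested. Without the cells carrying leukocyte markers the mean of the 63 pairs was -0.33.

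**Figure D3:**
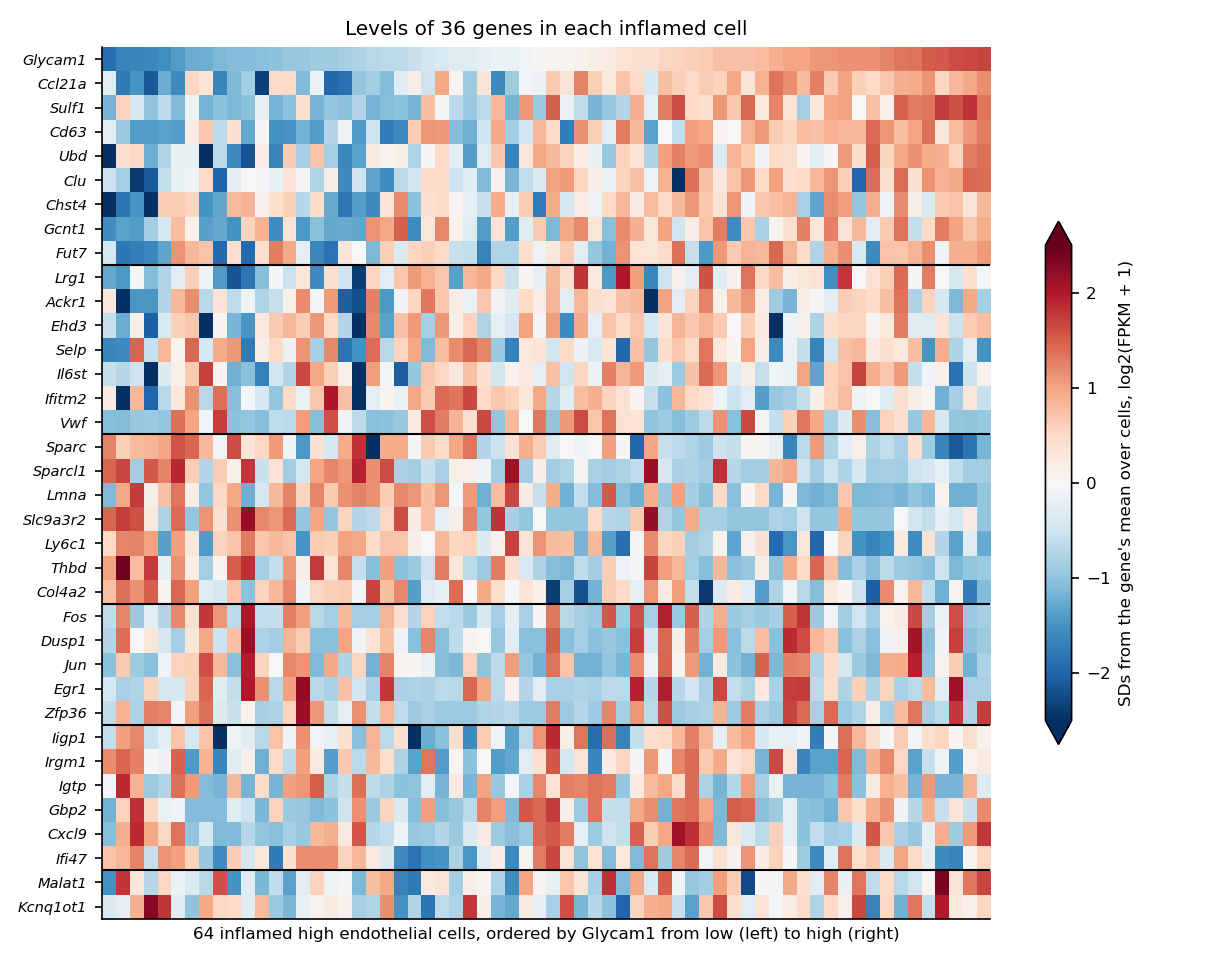
Levels of 36 genes (rows) in the 64 inflamed HEC (columns, ordered by Glycam1), as SDs of log2(FPKM + 1) from each gene's mean over the cells, with lines between the 6 sets of genes. The HEC genes go from blue to red from left to right and the inverse genes, led by Sparc, from red to blue, with no break between 2 kinds of cell; Fos and its partners are red in scattered single cells.

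Immediate early genes are transcribed within minutes of a stimulus. A set of 5 had the highest mean r of the 5 sets with more than 1 pair in the plot of 36 genes. Set members were chosen with earlier results of these data known, so this ranking describes the choice. Fos was detected in 35 of 64 cells (54.7%, exact 95% interval 41.7% to 67.2%), with a median FPKM of 1.25 and a highest value of 1851. Its r was 0.74 with the phosphatase gene Dusp1 (rho 0.63), 0.68 with Jun (rho 0.61), 0.60 with Zfp36, which destabilises mRNA, and 0.58 with Egr1. All 10 pairs of these 5 genes were at 0.43 or more, with a mean r of 0.58, against 0.56 in homeostatic HEC, 0.50 in dedifferentiated HEC and 0.42 in BEC. In the cells with both genes, Fos and Dusp1 had an r of 0.82 (28 cells) but Fos and Zfp36 of 0.09 (22 cells). Egr1 and Zfp36 were detected in 31 of 64 cells each, too few for the detection rule. The pairs holding either gene therefore lie outside that rule.

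Between this set and the HEC genes r was near 0. The 45 pairs with the 9 HEC genes had a mean r of 0.01 and Fos and Glycam1 an r of -0.06. Levels were lower than in homeostatic HEC, with differences of mean log2 values of -4.33 for Fos, -4.07 for Egr1, -3.67 for Zfp36, -2.38 for Jun and -2.23 for Dusp1. On the whole list, 9 of the 16 compared genes were lower by 1 or more and 1, Fosl2, was higher, against 6.24% and 12.7% of all genes compared. Over the 11 list members in at least 50% of the cells, which leave out Egr1 and Zfp36 at 31 cells each, the median r was 0.19 and 20 of 55 pairs (36.4%) were at 0.3 or more.

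Interferon-gamma-induced GTPases, which attack vacuoles that shelter pathogens, had the highest median r of the 28 lists plotted by median r. With 16 of 19 genes in at least 50% of the cells, the median was 0.23 and 36 of 120 pairs (30%) were at 0.3 or more. Homeostatic HEC had a median of 0.24 and dedifferentiated HEC of 0.30. Iigp1 and Irgm1 had an r of 0.56 (rho 0.54), the guanylate-binding protein Gbp2 and the T-cell chemokine Cxcl9 of 0.50 (rho 0.51), and Igtp and Ifi47, a GTPase outside the list, of 0.50, though 0.12 in the 42 cells with both. Several members are close relatives (Tgtp1 with Tgtp2, the Gbp genes), so reads may have been split between them. Iigp1 was detected in all 64 cells (FPKM 1.55 to 4134, median 259) and Irgm1 in 51 (0 to 971, median 37). Cxcl9 was detected in 44 cells and reached 3114.

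Promoter windows of Irgm1 and Igtp are shown because many members of their list share a motif. They are chr11:48871371-48871670 on the minus strand for Irgm1 and chr11:58199306-58199605 on the plus strand for Igtp, drawn as above.
Irgm1: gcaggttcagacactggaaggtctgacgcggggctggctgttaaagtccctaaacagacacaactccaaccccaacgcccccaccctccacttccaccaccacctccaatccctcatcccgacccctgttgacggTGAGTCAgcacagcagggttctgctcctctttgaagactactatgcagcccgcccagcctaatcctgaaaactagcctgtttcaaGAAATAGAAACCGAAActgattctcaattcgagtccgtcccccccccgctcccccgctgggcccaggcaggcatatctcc
Igtp: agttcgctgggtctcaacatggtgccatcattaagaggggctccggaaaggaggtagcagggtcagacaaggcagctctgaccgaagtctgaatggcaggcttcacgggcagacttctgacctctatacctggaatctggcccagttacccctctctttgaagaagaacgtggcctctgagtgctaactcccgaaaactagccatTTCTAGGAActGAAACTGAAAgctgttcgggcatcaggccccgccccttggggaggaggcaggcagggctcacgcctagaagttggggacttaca
The Irgm1 window held 2 overlapping ISRE matches and 1 TGANTCA match, and the Igtp window 1 ISRE match next to 1 TTCNNNGAA match. Of the 11 list members with a window, 9 held ISRE (81.8%) and 7 held TTCNNNGAA (63.6%), against 3.44% and 8.30% of all windows. In the type I interferon list, 7 of 12 held ISRE (58.3%) and 4 held TTCNNNGAA (33.3%). A match describes the letters and is not a measured binding site.

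Of the 54 pairs between the 9 HEC genes and 6 interferon-gamma genes, chosen after their values were seen, 3 reached 0.3, all with Ubd, and the mean r was 0.05. Ubd had an r of 0.37 with Cxcl9 (rho 0.44), 0.36 with Gbp2 and 0.30 with Iigp1. Glycam1 and Cxcl9 had an r of 0.09. Type I interferon genes were looser: with 17 of 23 genes, the median r was 0.15 and 20 of 136 pairs (14.7%) were at 0.3 or more, led by Irf9 and Zbp1 (0.44) and Ifit3 and Oasl2 (0.41). Homeostatic HEC had a median of 0.20 with 22.1%. Of the 17, 11 were higher by 1 or more than in homeostatic HEC, among them Oasl2 (2.19), Bst2 (2.06) and Ifit3 (1.89), against 12.7% of all genes.

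**Figure D4:**
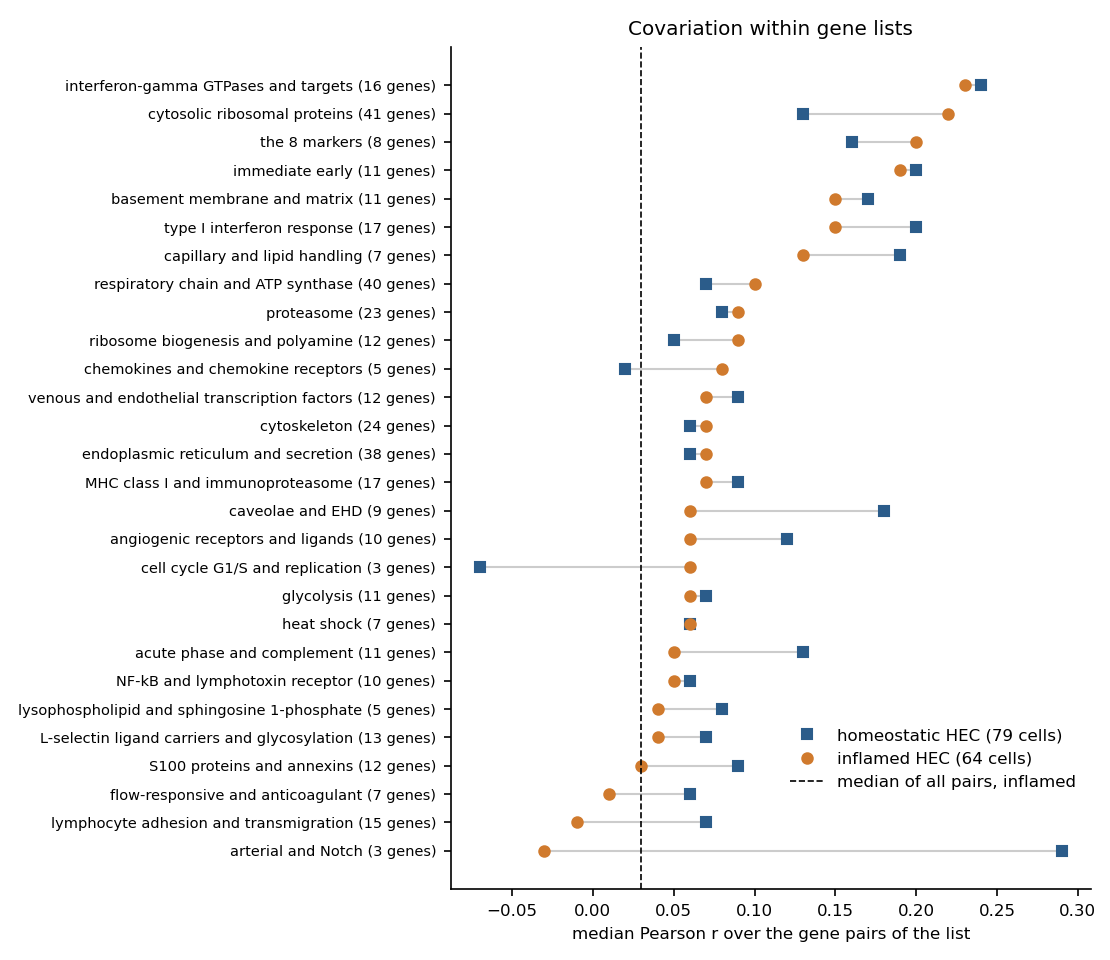
Median Pearson r over the gene pairs of each of 28 lists, with the number of genes in at least 50% of inflamed cells in brackets, in 64 inflamed HEC (orange circles) and 79 homeostatic HEC (blue squares); the dashed line is the median of all inflamed pairs (0.03). The interferon-gamma list (0.23), ribosomal proteins (0.22), the 8 markers (0.20) and immediate early genes (0.19) lie highest, and lists of 3 to 5 genes scatter most. Other marker lists, among them the HEC marker list, are not plotted.

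Cytosolic ribosomal protein genes covaried broadly. Over 41 genes the median r was 0.22 and 252 of 820 pairs (30.7%) were at 0.3 or more, against 0.13 and 9.51% in homeostatic HEC. Rpl4 and Rpl18 led with 0.66, followed by Rpl23 and Rpl37a with 0.65. These genes have many pseudogene copies that can take or give reads. Their mean level was nearly equal in both states (median difference 0.05). Of the 6 clustered gene groups, 4 small ones with 6 to 8 genes each held ribosomal protein genes. In 3 of them these were the majority, joined by Naca in one and Ly6e in another.

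Housekeeping lists had medians a little above the 0.03 of all pairs, and larger shares of pairs at 0.3 or more than the 1.93% of all pairs. Respiratory chain and ATP synthase genes (40 genes) had a median r of 0.10 with 6.79% of pairs at 0.3 or more, and the proteasome (23 genes) 0.09 with 5.14%. Glycolysis (11 genes) had 0.06 with 7.27%, Gapdh and Ldha being at 0.33. Cytoskeletal genes had a median of 0.07 with 5.8%, and their highest pair, the actin regulators Cfl1 and Pfn1, reached 0.62, against 0.11 in homeostatic HEC. Atp5a1 and Atp5o (0.51) and Psma5 and Psmb6 (0.51) also reached 0.5.

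Vascular lists spread more widely. The basement membrane and matrix list (11 genes) had a median of 0.15 with 14.5% of pairs at 0.3 or more. Its highest pair was Col4a1 and Sparcl1 (0.38) and its lowest Col18a1 and Sparcl1 (-0.39). The capillary and lipid list (7 genes) had 0.13 with 9.52%, led by Ly6c1 and Ly6a (0.50). In homeostatic HEC the matrix list had 0.17 with 16.4% and the capillary list 0.19 with 23.8%. Endothelial and venous transcription factors had a median of 0.07 with 7.58%, angiogenic receptors 0.06 with 2.22%, caveolar and EHD genes 0.06 with 5.56%, and flow-responsive genes 0.01 with 4.76%. Homeostatic HEC had, in that order, medians of 0.09, 0.12, 0.18 and 0.06, with 3.03%, 4.44%, 16.7% and 4.76%. Lymphocyte adhesion genes had a median of -0.01, with 3 of 105 pairs (2.86%) at 0.3 or more, against 0.07 and 1.9% in homeostatic HEC. Vcam1, Icam1 and Sele, the cytokine-induced adhesion molecules, had no partner at 0.5: their closest were Ap2s1 (0.47), Med13l (0.41) and Mtch2 (0.45, but 0.07 in the 31 cells with both).

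The remaining lists had medians of 0.03 to 0.09, and several had larger shares of pairs at 0.3 or more than all pairs (1.93%). The chemokine list had 3 of 10 such pairs (30%) at a median of 0.08, the acute phase list 8 of 55 (14.5%) at 0.05, and the ribosome biogenesis list 7 of 66 (10.6%) at 0.09. Class I antigen presentation genes had 14 of 136 (10.3%) at 0.07, and NF-kB and lymphotoxin receptor genes 4 of 45 (8.89%) at 0.05. Heat shock genes had 4.76% at 0.06, endoplasmic reticulum genes 3.41% at 0.07 and S100 proteins and annexins 1.52% at 0.03. Lysophospholipid genes (median 0.04) and G1/S genes (median 0.06) had none, over 10 and 3 pairs. High pairs included Birc2 and Ubd (0.42), Cd55 and Lrg1 (0.42), and Ccl21a with its near-identical copy Ccl21b (0.59), whose reads cannot be told apart with certainty. Arterial and Notch genes had a median of -0.03 over 3 pairs. Of the class II and G2/M lists only Cd74 and Hmgb2 were in at least 50% of the cells.

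The largest covarying block held many genes known from other tissues. Its 73 members, led by Smco1, Cybrd1, Ctcfl, Syt11, Nsl1 and Lrrn4cl, included the melanocyte enzyme Tyr, the odorant receptor gene Olfr613, the vomeronasal receptor gene Vmn1r58, the neutrophil chemokine receptor Cxcr2 and the long noncoding RNAs Malat1 and Kcnq1ot1. Olfr613 and Zfp488 had the highest r of the named pairs, 0.84 (rho 0.83), followed by Ctcfl with Smco1 and with Cybrd1 (both 0.80). The members were low but widespread: the median of their mean log2 values was 2.76, against 3.51 over all 3140 genes, and the median member was in 61 cells, against 47. Of the members with annotation, 80% were protein-coding, against 96.7% of all.

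The block was higher in cells of lower estimated depth. The mean level of the block had an r of -0.70 with estimated depth over the 64 cells, and every member had a negative r with depth (-0.74 to -0.24, median -0.49, against a median of 0.02 over all genes). Its r with Glycam1 was 0.02. The mean r inside the block was 0.48, and 0.32 after depth was removed. The same genes had a mean r of 0.43 in homeostatic HEC, 0.36 in dedifferentiated HEC and 0.26 in BEC. Exonic length was much the same as for all genes (medians 4178 and 4108 bases). Depth comes from the FPKM values themselves, which share their scale with the block, and whether depth or another property of the library sets the block was not tested.

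**Figure D5:**
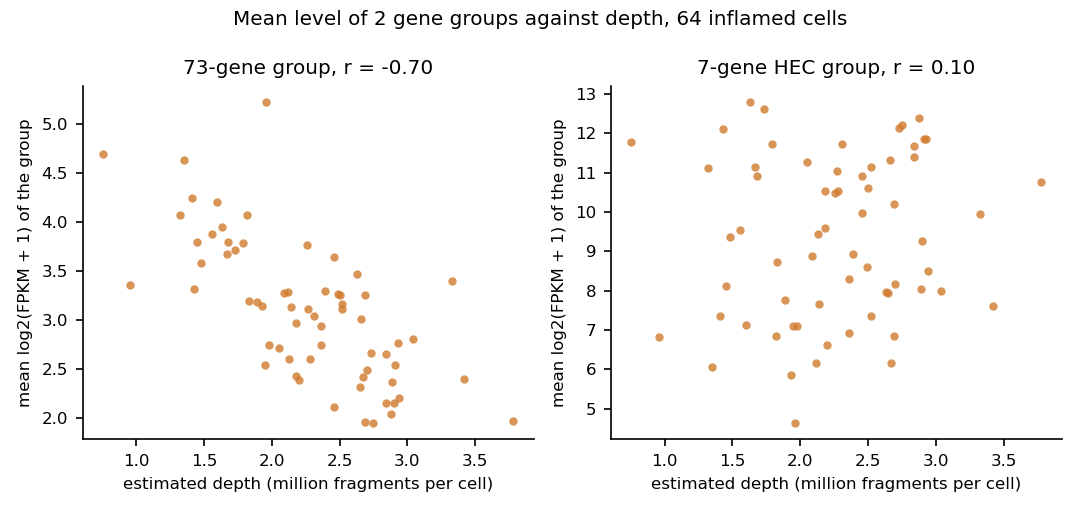
Mean log2(FPKM + 1) of the 73-gene block (left) and of the 7-gene HEC group (right) against the estimated depth of each of 64 inflamed HEC, in units of 1000000 fragments; each point is 1 cell. The block is lower at the right (r = -0.70) and the HEC group shows no trend (r = 0.10).

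The first 4 principal components of the cells each had genes described above at 1 end or both. The first took 5.05% of the variance, had Hnrnpk and Mdh2 on one side and Nsl1 and Malat1 of the block on the other, and had an r of 0.50 with gene number and 0.53 with depth. The second took 3.92% and had an r of 0.80 with gene number and -0.49 with depth. It had Kcnq1ot1, Grk4 and Intu of the block on one side, and Fth1 with the markers Ackr1 and Lrg1 on the other. The third took 2.76%, was led by Glycam1, Cd63, Sulf1, Ubd and Ccl21a on one side and Sparc, Sparcl1 and Lmna on the other, and had an r of 0.10 with gene number and -0.00 with depth. The fourth took 2.51% and was led by Dusp1, Jun and Fos against Lars2 and Actb. Gene number had an r of 0.3 or more with 388 genes and of -0.3 or less with 2, Ackr1 (-0.35) among them. Rdx, a membrane-cytoskeleton linker, was highest at 0.61, followed by Srsf11 (0.56) and Lyrm2 (0.55).

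Among the lowest pairs, few were of known partners. Dpysl2 and Itgav, the integrin alpha V chain, had the lowest r, -0.63 (rho -0.45), followed by Casc4 and Rtp4 (-0.60). Mbd4 and Pfn1, at -0.55, were at -0.29 without the 2 cells farthest in Mbd4. B4galnt2 and H2-T22, at -0.56, were at 0.25 in the 17 cells with both genes. In homeostatic HEC the 142 pairs at -0.5 or below had a median r of -0.07.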

How the data were processed

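Expression was measured in 220 single-cell libraries from mouse lymph node endothelium. The authors deposited FPKM per gene symbol for each cell. CASAVA 1.8, RSEM 1.2.18 and the mm10 build are named in the submitters' processing notes, with no role or order of steps. FPKM were used as deposited on the log2(FPKM + 1) scale (pseudocount 1), without read counts. Depth was therefore estimated per cell from the step between low FPKM values. On 20 cells simulated under the model that the method assumes, all estimates were within 5 percent. That check does not give the accuracy on real libraries. Inflamed cells had an estimated depth of 0.756 to 3.78 (in units of 1000000 fragments). Exact binomial intervals cover counting error over cells only.

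Pearson r was computed over the 64 cells, with the removal of gene number or depth by linear regression, average-linkage clustering of 1 - r after gene number (threshold 0.6, 6 genes or more) and principal components (Python 3.11.15, numpy 2.4.6, pandas 2.3.3, scipy 1.17.1). Level differences of 1 or more on the log2 scale were counted among 3397 genes, and no p-value was computed. Scripts were tested on simulated data. Positions came from GENCODE M21 for 94.4% of symbols, and promoter windows from RefSeq GRCm38.p6.

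The genes named were the 8 markers with their 5 highest and 3 lowest partners, 13 further endothelial or reference genes with 3 partners each, the 12 highest means and 12 largest SDs, the 20 highest and 12 lowest pairs, leading genes of clustered groups, members of the gene lists, and the 8 genes most tied to gene number. Not every gene under this rule is printed. Predicted and, for ranks, ribosomal genes were left out. Members, lists and markers were chosen with earlier results of these data known. Alternatives varied the pseudocount, the detection filter, the scaling, the correlation measure and the cells included.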

Additional observations from a re-analysis of the deposited data

How the results depend on the processing

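The share of pairs at an r of 0.5 or more (0.0422%) was 0.0228% among genes in 25% of the cells, 0.111% among genes in 75% of the cells, 0.064% without the 7 cells with fewest genes and 0.0174% after depth was removed. After gene number was removed (0.0351%), the same filters and cells gave 0.0176%, 0.0961% and 0.0551%. Genes higher by 1 or more (432) numbered 828 with a pseudocount of 0.1 and 111 with 10, and genes lower (212) numbered 319 and 85. The median difference of all genes (0.20) was 0.32 and 0.09 with those pseudocounts, 0.28 with FPKM scaled to a sum of 1000000 per cell and 0.01 with no filter. The first component took 4.19% to 6.37% of the variance over its alternatives. Of the 157 pairs recomputed under every choice, 2 changed sign, both among cells with both genes at an FPKM of 1 or more: Gcnt1 with Trim8 (-0.01) and B4galnt2 with H2-T22 (0.25). Gcnt1 with Chst4, not among the 157, also changed sign there (-0.13). Of 1727 values for the pairs, 1698 moved little, and 18 of the 27 larger moves were under that same choice. Of 224 list medians, 1 moved by 0.1 or more, the chemokine list, at -0.02 without the 6 cells carrying leukocyte markers. Many of the medians were themselves below 0.1, so this rule is coarse for them. The cause of these moves was not tested. Removing depth and rescaling without Glycam1 and Ccl21a were chosen after seeing the data. Depth is an estimate, and an FPKM of 0 in these cells may be a transcript missed at this depth. No paired analysis was possible because cell numbers only name cells and no result comes from a test.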
